A study of Mus musculus with 14 samples.

Results

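The 5 cadherin genes Cdh2, Cdh4, Cdh11, Cdh13 and Cdh22 were described in mouse hearts with and without p62 in cardiac muscle, at a young and an older age. They are 5 of the 55487 genes in the count table, and all 5 had enough reads to be among the 15528 genes tested. They were picked by name with earlier results of these data known, and their differences between ages count among the values they were selected on. Values with age are therefore a description of these 5 genes, and where a count of calls with age is printed beside the share of all genes, nothing is read from it.

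RNA came from hearts of untreated male C57BL/6 mice. The groups were Sqstm1 knockout (KO, Myh6-Cre-Sqstm1fl/fl) at 15 months (n = 4), wild type (WT) at 15 months (n = 4), KO at 2 months (n = 3) and WT at 2 months (n = 3). Sqstm1 encodes p62, an autophagy receptor, and Cre under the Myh6 promoter is active in cardiac muscle cells, so other heart cells keep the gene. The labels do not say whether the WT mice carried floxed alleles or Cre. All 4 groups share strain, sex and tissue.

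Classical cadherins are calcium-dependent adhesion proteins that bind their like on the neighbouring cell and, through their tails, hold catenins and the actin cytoskeleton. In heart muscle they sit in the adherens junctions of the intercalated disc, which couple neighbouring muscle cells. Cdh2 encodes N-cadherin, the main cadherin of that disc. Cdh4 encodes R-cadherin, named for the retina, and Cdh22 encodes a cadherin known from pituitary and brain. Cdh11 encodes a cadherin of fibroblasts and bone-forming cells. Cdh13 encodes T-cadherin, which has no tail inside the cell, is held in the membrane by a lipid anchor and binds the fat cell hormone adiponectin.

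On GRCm38, Cdh4 (ENSMUSG00000000305) lies on the plus strand at chr2:179442431-179899373 and Cdh22 (ENSMUSG00000053166) on the minus strand at chr2:165111507-165234853. Cdh11 (ENSMUSG00000031673) lies at chr8:102632095-102785642 on the minus strand and Cdh13 (ENSMUSG00000031841) at chr8:118283733-119324921 on the plus strand. Of the 5 genes, 1 had an entry in the RefSeq promoter table, Cdh22 (GRCm38.p6). The sequence before its annotated start is shown because no other of the 5 genes had an entry. It covers chr2:165234854-165234987, 134 bases read 5′ to 3′ on the minus strand up to the GENCODE start, and the capitals mark its 19 CpG dinucleotides, the sites where mammalian DNA is methylated.
Cdh22: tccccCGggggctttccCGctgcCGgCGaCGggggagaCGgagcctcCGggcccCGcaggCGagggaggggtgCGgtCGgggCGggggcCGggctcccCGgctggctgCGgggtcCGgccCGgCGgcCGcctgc
The whole RefSeq window of 300 bases held 38 CpGs and was 76.3% G or C. Of its bases, 166 lie within the annotated gene, as the RefSeq start (base 165234738) lies after the GENCODE start. Over 32851 promoters the medians were 7 CpGs and 52.7%, and 95.05% of promoters held fewer CpGs than Cdh22. On both strands the window held 1 GC box (GGGCGG), 171 bases before the RefSeq start, a motif found in 35.7% of promoters. It held no E-box core (CANNTG, in 72.3% of promoters), no CAGGTG (in 20.2%, an E-box that is counted in the core as well), no TATAAA (in 13.6%), no CATTCC (in 14.7%) and no GATA (in 57.9%).

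Total counts per library were 20218992 to 30404416, and 27.5% to 46.0% of them came from mitochondrially encoded genes. Sqstm1 was at 21.3 ± 10.5 CPM in KO and 201 ± 28.3 CPM in WT at 15 months (SD, n = 4 each). Its level at 2 months averaged 16.4 ± 2.49 CPM in KO and 161.7 ± 20.03 CPM in WT (SD, n = 3 each). CPM is the read count of a gene scaled to a common library total. Cardiac muscle markers were abundant in every library, and their 8 genes summed to 45272 to 85733 CPM in KO and 46151 to 85401 CPM in WT at 15 months, and to 39487 to 54457 CPM in KO and 37728 to 43449 CPM in WT at 2 months. WT replicate 1 at 2 months stood apart, with atrial markers summing to 1725 CPM against 91.7 and 129 CPM in the other WT libraries of that age. In whole-heart RNA, fewer cells of a type and less RNA per cell cannot be told apart.

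Cdh2 was the most abundant of the 5 cadherins per length of transcript in every group, and Cdh13 followed. Levels of different genes are compared as FPKM, CPM divided by the annotated exon length in kilobases. Cdh2 averaged 55.3 ± 13.7 FPKM in KO and 47.7 ± 11.6 FPKM in WT at 15 months, and 35.8 ± 5.49 FPKM in KO and 30.3 ± 2.61 FPKM in WT at 2 months. Cdh13 averaged 13.6 ± 2.88 FPKM in KO and 10.9 ± 2.03 FPKM in WT at 15 months, and 10.6 ± 1.43 FPKM in KO and 9.11 ± 1.19 FPKM in WT at 2 months. In every group the lowest Cdh2 library was above the highest Cdh13 library, and the lowest Cdh13 library was above all libraries of the other 3 genes.

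The order of the other 3 genes differed between the ages. At 15 months, KO hearts held Cdh22 at 2.44 ± 0.497 FPKM, Cdh4 at 1.90 ± 0.739 FPKM and Cdh11 at 1.02 ± 0.377 FPKM. WT hearts of that age held Cdh4 at 2.39 ± 0.534 FPKM, Cdh22 at 1.46 ± 0.294 FPKM and Cdh11 at 0.895 ± 0.240 FPKM. The ranges of Cdh4 and Cdh22 over libraries overlapped in both genotypes. Within a library of 15 months, Cdh22 was above Cdh4 in FPKM in 4 of 4 KO hearts, by little in replicate 3 (3.06 against 2.99). Cdh4 was above Cdh22 in 4 of 4 WT hearts. This order rests on the annotated exon lengths, 3702 bases for Cdh22 and 7257 for Cdh4. By reads, Cdh4 was above Cdh22 in every heart of 15 months. How often other pairs of genes split the genotypes in this way was not counted. Cdh22 was above Cdh11 without overlap in both genotypes, in WT by little, whereas Cdh4 was above Cdh11 without overlap in WT and overlapped with it in KO.
At 2 months, KO hearts held Cdh11 at 1.03 ± 0.147 FPKM, Cdh22 at 0.136 ± 0.0666 FPKM and Cdh4 at 0.134 ± 0.0930 FPKM. WT hearts held Cdh11 at 1.15 ± 0.584 FPKM, Cdh4 at 0.280 ± 0.127 FPKM and Cdh22 at 0.210 ± 0.181 FPKM. Cdh11 was thus above the other 2 without overlap in young hearts, and Cdh4 and Cdh22 overlapped there as well, with no single order within libraries in either genotype. As a share of the summed FPKM of the 5 genes, Cdh4 and Cdh22 together made up 3.62% to 8.41% in KO and 4.34% to 9.32% in WT at 15 months. At 2 months they made up 0.240% to 1.10% in KO and 0.728% to 1.49% in WT. The share of Cdh2 stayed between 70.5% and 77.3% in all 14 libraries.

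Cdh4 and Cdh22 were several times higher in hearts of 15 months than in hearts of 2 months, in both genotypes. Cdh4 was at 11.6, 9.80, 21.7 and 12.1 CPM in KO and 21.4, 16.8, 12.2 and 18.8 CPM in WT hearts at 15 months (replicates 1 to 4). Young hearts held 1.72, 0.399 and 0.809 CPM in KO and 1.78, 1.25 and 3.05 CPM in WT (replicates 1 to 3). Every library of 15 months was above every library of 2 months, and the genotypes overlapped at both ages. These values rest on 215 to 721 reads per library at 15 months and on 9 to 79 reads at 2 months, so the young levels carry more counting error. The log2 fold change of 15 over 2 months was 3.85 in KO (SE 0.45, 95% interval 2.89 to 4.80) and 3.06 in WT (SE 0.41, 2.19 to 3.94).

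Cdh22 was at 8.41, 6.95, 11.3 and 9.51 CPM in KO and 6.20, 6.39, 4.84 and 4.13 CPM in WT hearts at 15 months. The hearts of 2 months were at 0.758, 0.266 and 0.485 CPM in KO and 1.55, 0.358 and 0.425 CPM in WT. All older hearts were above all young hearts, and at 15 months all KO libraries were above all WT libraries. The reads behind these values numbered 112 to 376 per library at 15 months and 6 to 40 at 2 months. The log2 fold change with age was 4.18 in KO (SE 0.46, 95% interval 3.20 to 5.15) and 2.74 in WT (SE 0.42, 1.84 to 3.63). Without WT replicate 1 of 2 months, the library with atrial transcripts and the highest young Cdh22 level, the WT value was 3.76.

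**Figure D1:**
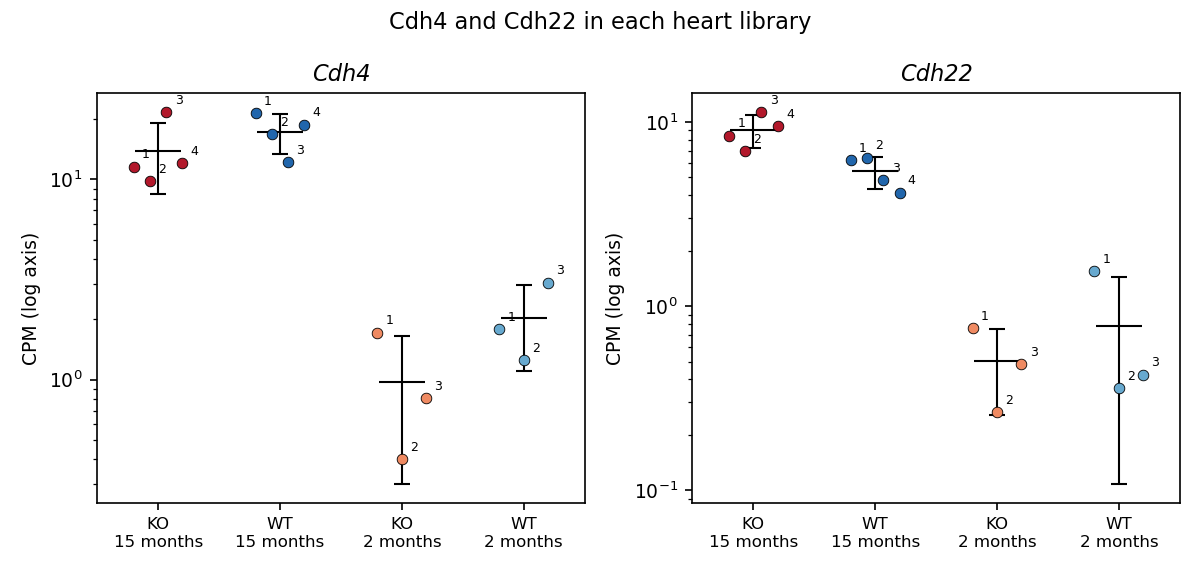
CPM of Cdh4 (left) and Cdh22 (right) on a log axis in each library, with replicate numbers beside the points, and the group mean with its SD as a bar. For both genes all points of 15 months lie above all points of 2 months, and for Cdh22 the 4 KO points of 15 months (6.95 to 11.3 CPM) lie above the 4 WT points (4.13 to 6.39 CPM).

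Among the 15528 genes ordered by log2 fold change, Cdh4 ranked 22 in both genotypes, and Cdh22 ranked 17 in KO and 32 in WT. Of the 5 cadherins, 2 were past the adjusted p threshold of 0.05 with age in each genotype, Cdh4 and Cdh22, where 2.25% of all genes were in KO and 1.04% in WT. The same 2 genes did not overlap between the ages, against 20.1% of all genes in KO and 16.2% in WT. Since the age differences count among the values the genes were chosen by, nothing is read from these counts.

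Cdh4 and Cdh22 are known from nervous tissue, so the markers of nerve and glia were set beside them. Summed neuron markers (5 genes) were 11.7 to 20.4 CPM in KO and 7.67 to 13.6 CPM in WT at 15 months, and 14.8 to 17.1 CPM in KO and 15.1 to 17.8 CPM in WT at 2 months. The neuron marker Th, an enzyme gene of catecholamine synthesis, was at 0 in 13 of 14 libraries. Summed markers of Schwann cells and glia (6 genes) were 9.002 to 18.6 CPM in KO and 11.2 to 17.4 CPM in WT at 15 months, and 10.1 to 12.7 CPM in KO and 11.3 to 24.2 CPM in WT at 2 months. Of these 2 lists, the called gene with age was Dbh, also of catecholamine synthesis, at −2.45 in WT. The ranges of both sums overlapped between the ages, except that the neuron sum of WT hearts was lower in every older heart. The part of nerve and glia in the Cdh4 and Cdh22 values was not tested.

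Cdh2 and Cdh13 had smaller fold changes with age. Cdh2 (ENSMUSG00000024304, minus strand of chromosome 18, 16588877 to 16809246) was at 305, 544, 413 and 522 CPM in KO and 455, 247, 418 and 418 CPM in WT hearts at 15 months. Hearts of 2 months held 239, 323 and 305 CPM in KO and 256, 220.1 and 257 CPM in WT. KO replicate 1 and WT replicate 2 were the low libraries of 15 months and fell within the range of the young hearts, and the rest were above it. The log2 fold change of 15 over 2 months was 0.63 in KO (SE 0.23) and 0.65 in WT (SE 0.23).

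Cdh13 was at 112, 191, 157 and 153 CPM in KO and 129, 91.7, 146 and 122 CPM in WT hearts at 15 months. Young hearts were at 101, 132 and 124 CPM in KO and 118, 95.3 and 94.0 CPM in WT. The ages overlapped in both genotypes, and the same 2 libraries of 15 months were lowest. The log2 fold change with age was 0.36 in KO (SE 0.19) and 0.26 in WT (SE 0.19). T-cadherin is also known from vessel walls, and the 8 endothelial markers summed to 349.8 to 1213 CPM in KO and 373 to 547 CPM in WT at 15 months, and to 373 to 423 CPM in KO and 351 to 404 CPM in WT at 2 months. Their part in the Cdh13 values was not tested.

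A property of the libraries moved with age beside Cdh2 and Cdh13. The length slope measures how far longer genes are read more often in a library than in the average library, in log2 CPM per doubling of exon length. At 15 months it was 0.0469 to 0.235 in 6 libraries, −0.0916 in KO replicate 1 and −0.0744 in WT replicate 2, and at 2 months it was −0.177 to −0.0105 in all 6 libraries. KO replicate 1 and WT replicate 2 of 15 months are the libraries lowest for Cdh2 and Cdh13 in their groups. With the length slope as a covariate, a setting chosen after the data were seen, the age difference of Cdh2 was 0.14 in KO and 0.26 in WT, and that of Cdh13 was −0.10 in KO and −0.09 in WT. In the same setting Cdh4 was at 3.60 in KO and 2.89 in WT, and Cdh22 at 3.98 in KO and 2.61 in WT. The slope comes from the same counts and went with age in most libraries, so this setting cannot tell slope and age apart. The part of the slope in the age differences was not tested.

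Cdh11, the fibroblast cadherin, overlapped between the ages in both genotypes. It was at 6.96, 13.4, 5.90 and 10.01 CPM in KO and 9.54, 5.41, 9.91 and 7.003 CPM in WT hearts at 15 months. In young hearts it was at 10.7, 8.64 and 8.21 CPM in KO and 16.0, 8.60 and 5.99 CPM in WT. All 4 groups overlapped, and the highest library was WT replicate 1 of 2 months. That library also had the highest fibroblast marker sum, 2507 CPM over 10 genes, against 1540 and 898 CPM in the other WT hearts of 2 months and 652 to 1803 CPM in the hearts of 15 months. The log2 fold change with age was −0.02 in KO (SE 0.33, 95% interval −0.72 to 0.69) and −0.36 in WT (SE 0.33, −1.06 to 0.35), and without that library the WT value was 0.15. Among KO hearts of 15 months, replicate 2 had the highest fibroblast sum (1803 CPM) and the highest Cdh11 level (13.4 CPM). Replicate 3 had the next highest sum (1708 CPM) but the lowest Cdh11 level (5.90 CPM). The part of fibroblast content in the Cdh11 values was not tested.

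**Figure D2:**
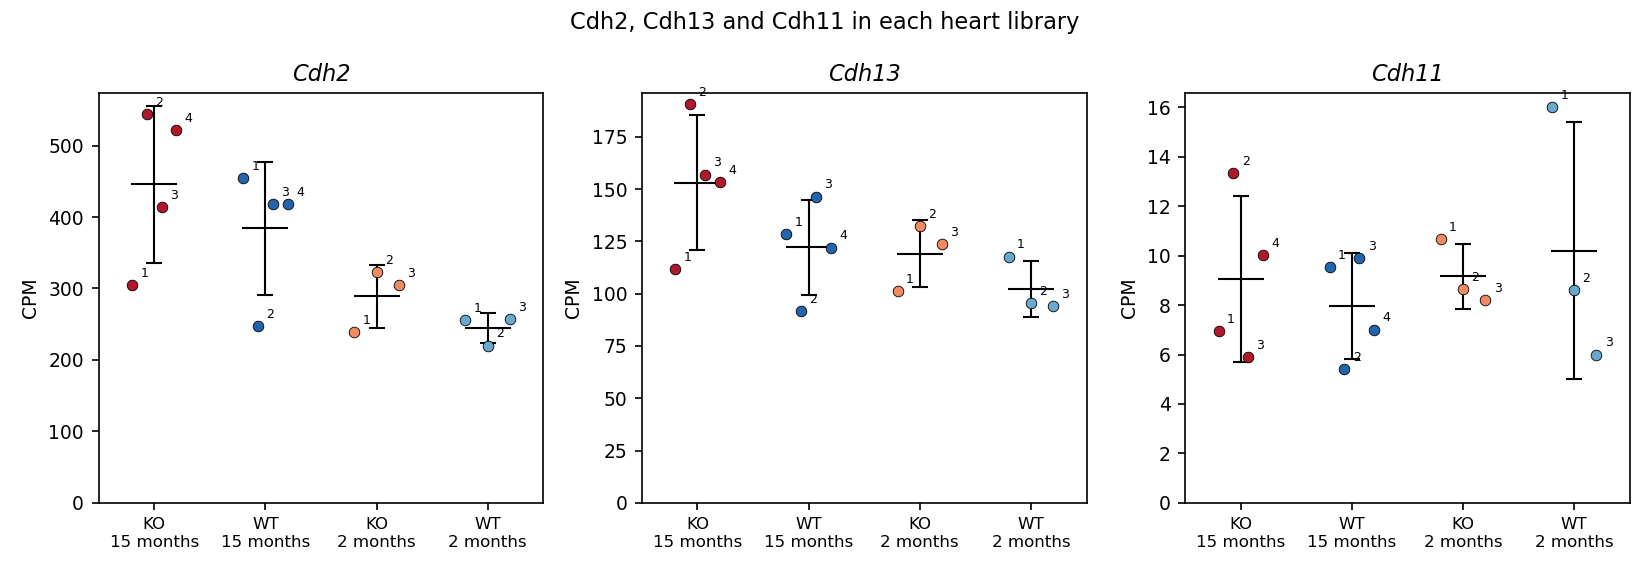
CPM of Cdh2, Cdh13 and Cdh11 in each library on linear axes that start at 0, with replicate numbers beside the points, and the group mean with its SD as a bar. KO replicate 1 and WT replicate 2 are the lowest points of 15 months for Cdh2 and Cdh13, and WT replicate 1 of 2 months is the highest for Cdh11 at 16.0 CPM.

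Between genotypes, none of the 5 cadherins passed the test. In edgeR's quasi-likelihood test with Benjamini-Hochberg adjustment over all genes, 0 of 5 were called at 15 months, at 2 months and in the mean of both ages, where 0.00644% of all genes were called in each. That share is 1 gene, Sqstm1. At an unadjusted p under 0.05, 616 genes differed at 15 months, 494 at 2 months and 506 in the mean, and 1 of the 5 cadherins was among them each time.

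Of the 5 cadherins, Cdh22 had the largest genotype difference at 15 months. It averaged 9.05 ± 1.84 CPM in KO and 5.39 ± 1.09 CPM in WT (SD, n = 4 each), and it was higher in 4 of 4 KO hearts than in any WT heart. The log2 fold change was 0.75 (SE 0.32, 95% interval 0.06 to 1.44), with edgeR's unadjusted p = 0.0361 and adjusted p = 0.999. Groups without overlap were found for 1.99% of all genes at that age. Over the alternatives the log2 fold change was 0.62 to 0.86.

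The direction of Cdh22 at 2 months depended on 1 library. It averaged 0.503 ± 0.246 CPM in KO and 0.778 ± 0.670 CPM in WT (SD, n = 3 each), a log2 fold change of −0.69 (SE 0.51, edgeR adjusted p = 0.9997). Without WT replicate 1 the value was 0.32. The change in genotype effect between the ages, which is also the difference between the age effects of the genotypes, was 1.44 for Cdh22 (SE 0.60, interval 0.15 to 2.73), with edgeR's unadjusted p = 0.0307 and adjusted p = 0.9999. It was 0.43 without the same library, and 1.13 to 1.82 with any other library left out. For this contrast 0% of all genes and 0 of the 5 cadherins were called, and 577 genes had an unadjusted p under 0.05.

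Cdh4 was lower in KO than in WT on average at both ages, within overlapping groups. At 15 months it averaged 13.8 ± 5.36 CPM in KO and 17.3 ± 3.88 CPM in WT (SD, n = 4 each), a log2 fold change of −0.32 (SE 0.33, edgeR adjusted p = 0.999). In hearts of 2 months it averaged 0.975 ± 0.675 CPM in KO and 2.03 ± 0.925 CPM in WT (SD, n = 3 each), a log2 fold change of −1.11 (SE 0.47, 95% interval −2.12 to −0.10) with edgeR's unadjusted p = 0.0339 and adjusted p = 0.9997. The mean over both ages was −0.72 (SE 0.29, interval −1.33 to −0.10), with edgeR's unadjusted p = 0.0252 and adjusted p = 0.999. Leaving out single libraries moved the 2-month value between −1.75 (without KO replicate 1) and −0.67 (without WT replicate 3). The 15-month value moved between −0.63 (without KO replicate 3 of that age) and −0.19 (without KO replicate 2). The change in genotype effect between the ages was 0.78 (SE 0.57, edgeR adjusted p = 0.9999), with 0.35 without WT replicate 3 of 2 months and 1.43 without KO replicate 1 of 2 months.

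Cdh2, Cdh13 and Cdh11 differed by less between genotypes than Cdh22 at 15 months and than Cdh4 at 2 months. At 15 months Cdh13 (0.33) differed by about as much as Cdh4 (−0.32), in the other direction. At 15 months the log2 fold changes of KO over WT were 0.33 for Cdh13 (SE 0.18, edgeR adjusted p = 0.999), 0.21 for Cdh2 (SE 0.21) and 0.18 for Cdh11 (SE 0.31). At 2 months they were 0.22 for Cdh13 (SE 0.20), 0.24 for Cdh2 (SE 0.24) and −0.16 for Cdh11 (SE 0.35). In none of the 3 genes were the genotypes apart at 2 months, where groups without overlap made up 8.15% of all genes, nor at 15 months. The interval of the 15-month difference ran from −0.05 to 0.70 for Cdh13, from −0.23 to 0.66 for Cdh2 and from −0.47 to 0.84 for Cdh11, so differences of these sizes could not be told from 0.

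**Figure D3:**
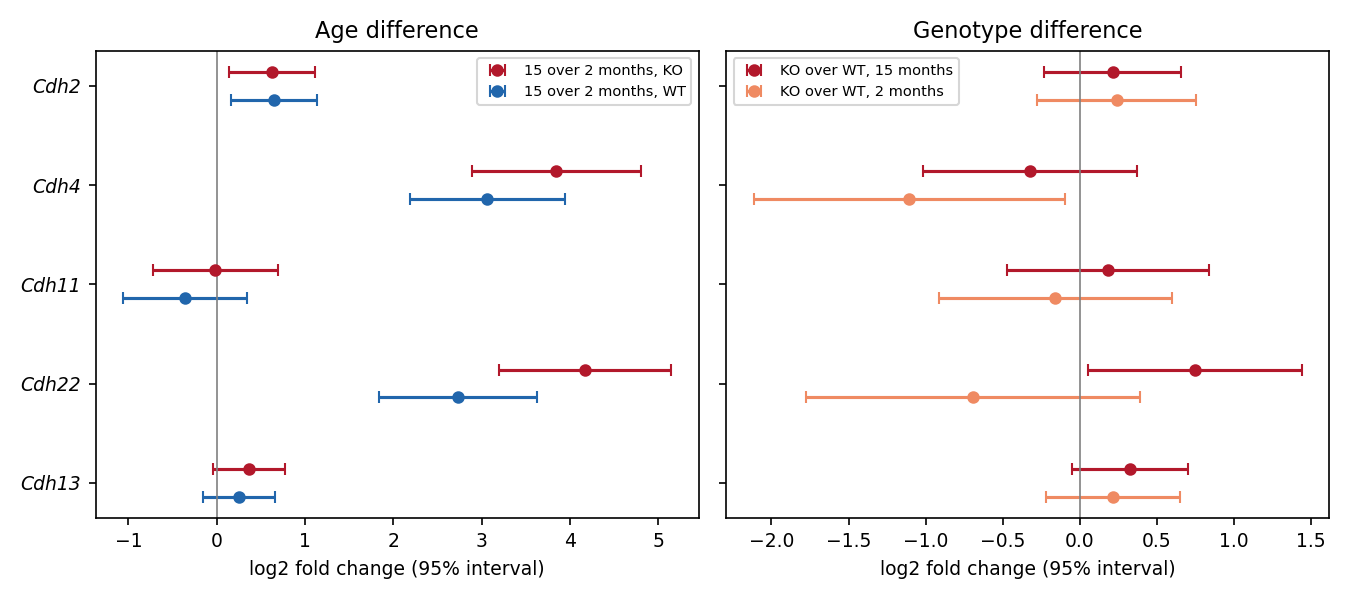
Log2 fold changes of the 5 cadherins with their 95% intervals from edgeR, 15 over 2 months on the left and KO over WT on the right. The age intervals of Cdh4 (2.89 to 4.80 in KO) and Cdh22 (3.20 to 5.15 in KO) stand apart from those of the other 3 genes. The age differences count among the values the genes were chosen by, so nothing is read from this gap. The genotype intervals lie near or across 0.

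The other cadherins of the heart were counted from a list written from textbook knowledge. Of 18 further classical and related cadherins, 6 were tested, and the other 12 had 0 to 35 reads over all 14 libraries. With age, 2.25% of all genes passed the test in KO hearts and 1.04% in WT hearts. Whether this list or the lists that follow went beyond these shares was not tested. In KO hearts, 1 of the 6 passed, and it fell. This was Cdh20, an atypical cadherin, at 0.485, 0.973, 0.331 and 1.18 CPM in KO at 15 months, against 1.67, 2.26 and 2.22 CPM in KO at 2 months. In KO hearts, 20.1% of all genes were without overlap between the ages. For Cdh20, all older KO hearts were below all young ones (log2 fold change −1.47, SE 0.36, edgeR adjusted p = 0.0473, 0.00375 to 0.247 over the alternatives). It no longer passed when any of 10 of the 14 libraries was left out, among them each KO heart of 2 months, with adjusted p of 0.0556 to 0.160. Nor did it pass with RLE size factors in place of TMM (edgeR adjusted p = 0.0506), with only the groups compared (0.106), with the replicate number as a block (0.0940) or with the length slope as a covariate (0.247). WT hearts held 0.861, 0.895, 0.774 and 0.715 CPM at 15 months and 2.83, 2.27 and 2.01 CPM at 2 months, a log2 fold change of −1.54 (SE 0.35, edgeR adjusted p = 0.0514). Cdh5, the cadherin of endothelial cells, was at 1.37 in KO (SE 0.42, edgeR adjusted p = 0.0796) and 0.72 in WT (SE 0.41, edgeR adjusted p = 0.295). The median log2 fold change of the 6 was 0.37 in KO and 0.01 in WT, where that of all genes was 0.01 in KO and −0.02 in WT. The length slope went with age in most libraries. Its part in this median and in the medians of the lists that follow was not tested.

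Of 29 protocadherins, Fat, Dachsous, Celsr, calsyntenin and other relatives, 18 were tested and none passed with age in KO or WT. Their median log2 fold change was 0.51 in KO and 0.19 in WT. Of 12 catenins and partners, which tie cadherin tails to actin, 11 were tested and 1 passed. Ctnna3, the alpha catenin of heart muscle, was at 49.1, 64.9, 51.8 and 64.7 CPM in KO at 15 months, against 26.9, 37.2 and 29.1 CPM in KO at 2 months. It rose with age in KO hearts (log2 fold change 0.89, SE 0.17, edgeR adjusted p = 0.0224, 0.000193 to 0.164 over the alternatives), and was at 0.33 in WT (SE 0.17, edgeR adjusted p = 0.252). The call in KO was lost without KO replicate 1 or 3 of 2 months or KO replicate 2 or 4 of 15 months, with adjusted p of 0.0603 to 0.137, and with the replicate block (edgeR adjusted p = 0.0972). The age effects of the genotypes differed by 0.56 for Ctnna3 (SE 0.24, edgeR adjusted p = 0.9999), so the gap between KO and WT did not pass the test. Ctnnd2, a delta catenin known from neurons, had the largest fold of this list but only 150 reads in all, at 2.702 in KO (SE 0.84, edgeR adjusted p = 0.0852) and 1.52 in WT (SE 0.74, edgeR adjusted p = 0.226). The median of the 11 was 0.46 in KO and 0.34 in WT.

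Of 16 genes of the desmosome and the intercalated disc, all were tested, none passed with age in KO and 1 passed in WT. Dsp, which encodes desmoplakin and anchors intermediate filaments, rose to a mean of 1749 ± 193 CPM in WT at 15 months (SD, n = 4), against 970.4 ± 159 CPM in WT at 2 months (SD, n = 3). Its log2 fold change was 0.85 in WT (SE 0.19, edgeR adjusted p = 0.0462, 0.000422 to 0.213 over the alternatives) and 0.55 in KO (SE 0.19, edgeR adjusted p = 0.0979). The WT call was lost without any of 9 of the 14 libraries, among them WT replicates 2 and 3 of 2 months and WT replicates 1, 3 and 4 of 15 months, with adjusted p of 0.0551 to 0.213, with only the groups compared (edgeR adjusted p = 0.0775) and with the replicate block (0.138). The median of the 16 was 0.35 in KO and 0.47 in WT. With the length slope as a covariate, neither Ctnna3 (0.61 in KO) nor Dsp (0.60 in WT) passed.

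None of the 10 enzymes that cut cadherins, none of the 8 transcription factors known to act on cadherin genes and none of the 3 genes of adiponectin and its receptors passed with age in KO or WT. The medians of the enzymes were 0.45 in KO and 0.00 in WT, and those of the factors were 0.45 in KO and −0.21 in WT. Adipoq, which encodes the ligand of T-cadherin in fat cells, was at 1.69 in KO and −2.36 in WT with age, and rested on 271 reads over all libraries. KO replicate 1 held 28 of its reads at 15 months, where the other KO hearts held 0, 2 and 1, and WT replicate 1 held 174 at 2 months, where the other WT hearts held 2 and 6. Summed fat cell markers (5 genes) were 13.6 CPM in WT replicate 1 of 2 months, and 0.119 and 0.309 CPM in the other WT libraries of that age. Between genotypes, none of these 7 lists had a gene past the threshold in edgeR's test at 15 months, at 2 months or in the mean. The smallest p of a list at 15 months was 0.0131 in edgeR's test for the catenin partner Arvcf (log2 fold change −0.38, SE 0.13, edgeR adjusted p = 0.999). It was lower in 4 of 4 KO hearts than in any WT heart, where 1.99% of all genes were without overlap. Arvcf was picked by its p, so nothing is read from this. Other list members with the smallest p at 15 months were Cdh23 at 0.48, the protocadherin Pcdh19 at 0.63, the connexin gene Gjc1 at 0.21, the protease gene Pcsk6 at 0.86, Klf4 at 0.64 and the receptor gene Adipor2 at −0.25. At 2 months they were Cdh6 at −1.43, the calsyntenin gene Clstn2 at −1.07, Ctnna3 at −0.46, the disc gene Lmo7 at 0.39, Pcsk5 at −0.72, Twist2 at −1.05 and Adipoq at −4.43. Cdh6 had 49 reads in WT replicate 1 of 2 months and 4 in each other WT heart of that age. In the mean of both ages they were Cdh23 at 0.39, Clstn2 at −0.83, the catenin-like gene Ctnnal1 at −0.31, the desmosomal cadherin Dsg2 at 0.35, Twist2 at −0.71 and Adipoq at −2.41.

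**Figure D4:**
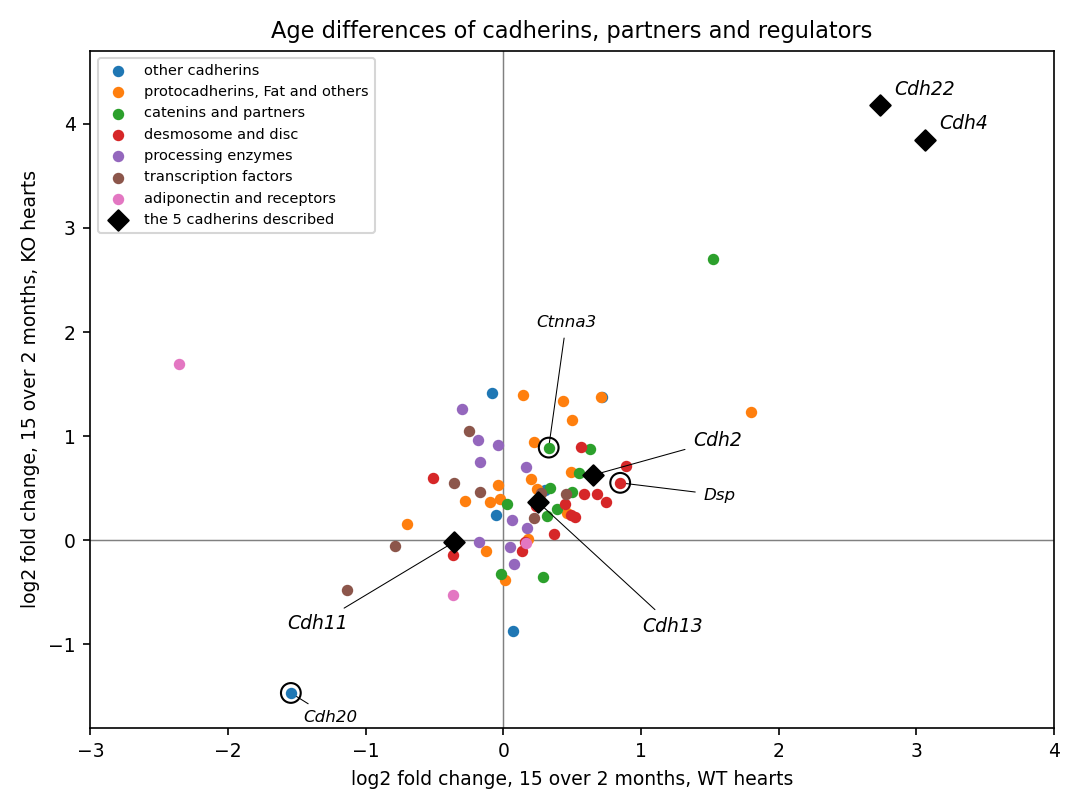
Log2 fold change of 15 over 2 months in KO (vertical) and WT hearts (horizontal) for the 5 cadherins (diamonds) and 72 genes of 7 lists (coloured points), with circles round the genes past the test in either genotype. Cdh4 and Cdh22 lie at 3.85 and 4.18 in KO and at 3.06 and 2.74 in WT, and Cdh20 lies lowest of the cadherins in both genotypes.

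The nearest tested genes beside the 5 cadherins did not pass edgeR's test with age. The nearest tested genes of Cdh4 were Fam217b (log2 fold change 0.50 in KO and 0.51 in WT) and, 12779 bases after it, Taf4 (0.20 in KO and 0.57 in WT). Those of Cdh22 were Cd40 (−0.09 in KO and −0.70 in WT) and Slc35c2 (−0.34 in KO and −0.04 in WT). The nearest tested genes of Cdh13 were Mphosph6 (−0.46 in KO and −0.32 in WT) and Hsbp1 (−0.53 in KO and −0.65 in WT). Neighbours of Cdh2 and Cdh11 were pseudogenes and a noncoding RNA gene, and none of them passed. Genes annotated within Cdh4 and Cdh22 held 0 and 1 reads in all in the count table. How reads that overlap 2 genes were assigned is not given in the sources used here.

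The genes closest to each cadherin over the 14 libraries were found by the root mean square (RMS) distance of log2 CPM centred on the gene mean, among 11562 protein-coding genes. The closest to Cdh4 were the amylase gene Amy1 (RMS 0.62), Cdh22 (0.71) and the ketone body enzyme gene Bdh1 (0.83), against an RMS of 1.84 for Cdh4 itself around its mean. The closest to Cdh22 were Amy1 (0.65), the potassium channel gene Kcnk1 (0.69) and Cdh4 (0.71), against 1.82 for Cdh22 itself. Amy1 was at 22.3 ± 1.94 CPM in KO and 25.2 ± 2.93 CPM in WT at 15 months (SD, n = 4 each), and at 1.43 ± 0.0664 CPM in KO and 2.78 ± 0.754 CPM in WT at 2 months (SD, n = 3 each). It resembles other amylase genes in sequence, and how reads that fit more than 1 gene were counted is not given in the sources used here.
The closest to Cdh2 were Asb15 (0.09), the Z-disc gene Ldb3 (0.13) and the splicing factor gene Celf2 (0.14), against 0.42 for Cdh2 itself. Those of Cdh13 were Nono (0.07), Ewsr1 (0.10) and Ubap2l (0.10), against 0.30. Those of Cdh11 were Zfp354c (0.24), Klhl13 (0.26) and Zfp579 (0.26), against 0.43. The libraries differed in depth, composition and length slope, and such differences are common to many genes of a library. The profiles of Cdh4 and Cdh22 also hold their age differences, which count among the values they were chosen by. Nothing is read from the closeness of these 2 genes to each other. Closeness is therefore a description of these 14 hearts.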

How the data were processed

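Raw counts of reads per gene, as whole numbers, were deposited by the authors for 14 libraries. A stranded kit with ribosomal RNA removal was used, per the labels' protocols. STAR 2.7.3a, cutadapt 1.16, featureCounts 1.6.3, DESeq2 1.26.0 and GRCm38 are named per the submitters' processing notes, and the strand setting is not given in the sources used here. GENCODE M21 gave symbols, positions and exon lengths for 55227 of 55487 identifiers. The test was edgeR 4.0.16 under R 4.3.3 (TMM, filterByExpr with minimum count 10 and minimum total 15, robust quasi-likelihood F-test) on all 14 libraries in 4 groups, adjusted over 15528 genes with a threshold of 0.05, and was tested on simulated data. No library repeated another (lowest chi-square 18.7 per degree of freedom). The labels do not say that libraries of a group are separate animals, so p-values may measure technical spread.

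The 5 genes and the lists were chosen with earlier results of these data known. Named were the 5 genes, up to 3 genes per list past the threshold with age, the gene of each list with the smallest p between genotypes, neighbours, and the 3 closest genes by RMS. Cdh5, Ctnnd2, Th and Dbh were named after their values were seen. A gene picked by this rule is left out here. Alternatives were RLE factors, no filter, a mean CPM of 1, DESeq2 1.42.0, limma 3.58.1 voom, only the groups compared, a replicate block, no mitochondrial genes, a threshold of 0.1, and each library left out. The length slope was added after the data were seen.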

Additional observations from a re-analysis of the deposited data

How the results depend on the processing

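The counts of the 5 cadherins past the threshold were 2 with age in each genotype and 0 in the other contrasts under the alternatives run, except that without KO replicate 1 of 15 months the count in KO was 3, with Cdh2 added. The age differences are among the values the genes were chosen by, so their counts are no support. The number of all genes called with age was less steady, 49 to 3523 in KO and 38 to 1116 in WT. The direction of small fold changes turned in some settings. With the length slope as covariate, Cdh13 was at −0.10 with age in KO, −0.0889 in WT and −0.00655 for the difference between the ages, and Cdh11 at −0.0151 for the genotype mean. Cdh11 with age in KO was at 0.00426 without a filter.

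Leaving out single libraries gave Cdh11 between −0.42 and 0.34 at 2 months, −0.0667 and 0.35 at 15 months, −0.11 and 0.26 for the mean, −0.27 and 0.15 with age in KO, −0.61 and 0.15 with age in WT, and −0.15 and 0.60 for the difference. Cdh22 was between −1.07 and 0.32 at 2 months and −0.16 and 0.54 for the mean, Cdh2 between −0.19 and 0.12 and Cdh13 between −0.0141 and 0.23 for the difference.

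Correlations of same-numbered libraries within an age ran from −0.441 to 0.308. Libraries of different numbers were not compared, so these values cannot show whether the replicate numbers pair the libraries. With the replicate block, Cdh11 with age in KO was at 0.00146, no call of the 5 genes changed, and the calls of Cdh20 and Ctnna3 in KO and of Dsp in WT were lost (edgeR adjusted p = 0.0940, 0.0972 and 0.138). All-gene calls with age were 70 in KO and 55 in WT with the block.

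Levels moved by over 1 SD in 18 of 20 cases when mitochondrial genes were left out, since each total shrank. Low read numbers of Cdh4 and Cdh22 at 2 months limit their young levels.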

Other observations

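The ratio of Cdh22 to Cdh4 reads differed between genotypes in older hearts. It was 0.521 to 0.787 in the 4 KO hearts and 0.220 to 0.396 in the 4 WT hearts of 15 months, without overlap. At 2 months it was 0.441 to 0.667 in KO and 0.139 to 0.870 in WT hearts, with overlap. The ratio was computed after the values were seen and was not tested. How many other pairs of genes have ratios without overlap was not counted. At 2 months it rests on few reads.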
